A study of Mus musculus with 6 samples.

Results

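The 10 genes described here are Cntn3, R3hdml, Rit2, Ctf2, Adamtsl3, Tac2, Cysltr1, Slc26a7, Ccl27b and Lrrfip2, which were among the deepest falls in mouse cap mesenchyme that had lost Dnmt1. They were taken by name, 10 of 16989 genes tested and of 26567 genes with a paired transcript. Cap mesenchyme, the cells that sit around the ureteric bud tips and hold the nephron progenitors, was sorted from C57BL/6 kidneys at embryonic day 18.5. All 6 libraries came from embryos with Six2.Cre and conditional Dnmt1: 3 had the genotype Dnmt1 +/- (heterozygous here) and 3 had Dnmt1 -/- (knockout here), and no library with both alleles intact was analysed here. Cre under Six2 deletes the gene only in cells of the Six2 lineage, so other cells in the sort would keep it. Nothing in the labels ties a library to an embryo or litter of its own, so p-values measure the spread among the libraries, part of which may be technical. Y-linked transcripts showed both sexes in each group, so the libraries of a group were not all repeats of 1 embryo. In sorted bulk cells, fewer cells that express a gene and less of its RNA per cell cannot be told apart.

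Dnmt1 copies methyl groups onto the new DNA strand after replication. Methylation of CpG dinucleotides in promoters is known for keeping germline genes and other tissue-restricted genes silent, and its loss is best known for switching such genes on. The genes described here went the other way. They share no single pathway. Ctf2, Tac2 and Ccl27b encode secreted signals, and Cysltr1 encodes a receptor. Cntn3 and Adamtsl3 encode proteins of the cell surface or matrix, and R3hdml a predicted secreted protein. Slc26a7 encodes an anion transporter, and Rit2 and Lrrfip2 act inside the cell.

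The libraries held between 46741667 and 61585484 estimated counts. Dnmt1 was at 40.04, 52.4 and 51.7 CPM (counts scaled to a common library size, TMM-normalised) in heterozygous replicates 1 to 3 and at 20.9, 18.6 and 14.9 CPM in knockout replicates 1 to 3. Summed CPM of 15 cap mesenchyme markers lay between 2363 and 2445 in the heterozygous and between 1793 and 2144 in the knockout libraries. Endothelial, stromal, ureteric bud and tubule markers were most abundant in knockout replicate 1. Endothelial markers summed to between 38.9 and 53.4 CPM in the heterozygous libraries and to 239, 103 and 59.0 CPM in knockout replicates 1, 2 and 3, and stromal markers to between 503 and 612 against 1432, 699 and 538 CPM. Ureteric bud markers summed to between 39.98 and 71.8 CPM in the heterozygous libraries and to 285, 129.9 and 62.8 CPM in the knockout libraries, and tubule markers to between 47.3 and 80.95 against 181, 81.4 and 42.2 CPM. Macrophage markers summed to between 18.3 and 19.7 CPM in heterozygous and to 29.1, 24.5 and 22.8 CPM in knockout replicates 1 to 3. Podocyte markers summed to between 195.6 and 202 CPM in heterozygous and to 211, 154.7 and 152.6 CPM in knockout replicates, with 3 of 12 called lower. All 12 genes of each of these 6 lists were tested, and none had 3 counts or fewer over all libraries. Early nephron markers (14 of 15 tested) summed to 837 to 874 CPM in heterozygous and 787.5 to 842 CPM in knockout libraries. Neuron and glia markers (9 of 12 tested) summed to 62.2 to 75.95 against 69.8 to 78.3 CPM. Erythroid markers (5 of 10 tested) summed to 285 to 654 against 220.5 to 485 CPM. The part of these cell types in the values below was not tested. Without knockout replicate 1 the 7 genes detected in both groups had log2 fold changes between -2.78 and -1.39, against -2.42 to -1.60 with it. Knockout replicate 2, with endothelial and ureteric bud sums above every heterozygous library, stayed in, so these values cannot separate cell content from the falls.

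The genes were chosen on the contrast described here, so their fold changes are given as descriptions with no test. All 10 had an adjusted p under 0.05 for a fall (edgeR quasi-likelihood test, Benjamini-Hochberg), a call that 327 of 16989 genes received, or 1.92% (6.85% were called in either direction). All 10 also had every knockout library below every heterozygous library, as did 14.2% of genes tested. Neither count is read as a result about them, because that is how they were picked. Over the 327 called genes the median log2 fold change was -0.59. Ranked by fitted fold change among the 327, Cntn3 stood 1st, Lrrfip2 2nd, Ccl27b 4th, R3hdml 9th and Slc26a7, the shallowest of the set, 16th. The values near that end were -1.60 for Slc26a7 just inside, and -1.58 for Abi3bp, -1.49 for Vtn, -1.46 for Igf2, -1.44 for Dync1i1 and -1.43 for Itih2 just outside in the ranking of protein-coding genes averaging 1 CPM or more. Called genes with a steeper fitted fall that lie outside the set were Ctage5, Gm10240, Gm13370, Sh2d7, Gm6733 and 1700013N18Rik. Each had a mean over the 6 libraries below 1 CPM, but so did Ccl27b and Lrrfip2, which are in the set.

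The set falls into 2 kinds. In 7 genes a reduced signal remained in every knockout library, with means between 18.6% and 32.9% of the heterozygous mean. The other 3, Cntn3, Ccl27b and Lrrfip2, were at or near 0 in the knockout and entered the test only through the heterozygous group, so they could only have differed downwards. For these 3 the fitted fold change depends on the prior count. By sex as read from Y-linked transcripts, the knockout level of the 10 genes was 0% to 33.1% of the heterozygous level in males (2 heterozygous libraries, 1 knockout). In females it was 0% to 38.6% (1 heterozygous library, 2 knockout).

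**Figure D1:**
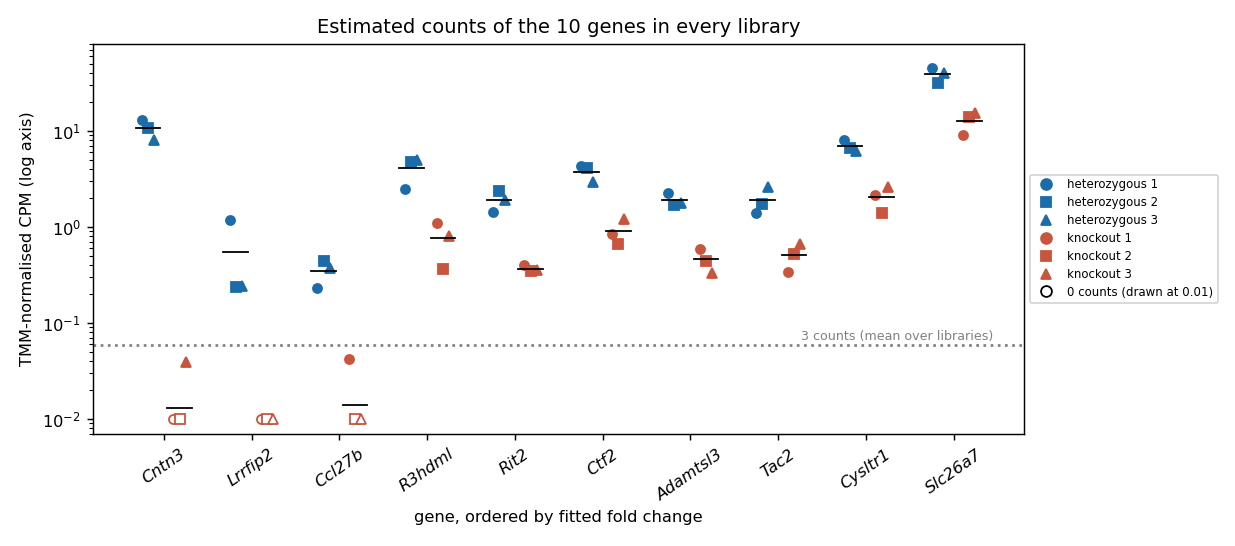
TMM-normalised CPM (log axis) of each gene in the 3 heterozygous (blue) and 3 knockout (red) libraries, with marker shapes for replicate numbers, black lines for group means, open markers for estimated counts that rounded to 0 and a dotted line at the level of 3 counts. Slc26a7 stays between 8.99 and 15.2 CPM in the knockout, whereas Cntn3, Lrrfip2 and Ccl27b lie under the line of 3 counts there.

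Of the secreted signals, Ctf2 encodes neuropoietin, a cytokine of the interleukin-6 family that signals through the CNTF receptor with the LIF receptor and gp130. It was at 4.26, 4.05 and 2.91 CPM in heterozygous replicates 1 to 3 and at 0.849, 0.656 and 1.199 CPM in knockout replicates 1 to 3. The lowest heterozygous library was 2.43 times the highest knockout library. On the log2 scale the fitted change was -2.05 ± 0.31 (SE), which left 24.1% of the heterozygous mean. Its locus is on chromosome 7 from 134861620 to 134869130 (NCBIM37), and a single transcript of 1754 bases carried its counts. Of the 1724 stretches of 31 bases in that transcript, 12.65% also occur in transcripts of other genes, and 2.9% lie on the opposite strand in Ctf1, its neighbour. Strand was not given for the library kit, so reads in the part that overlaps Ctf1 could have come from either gene.

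Tac2 encodes the precursor of neurokinin B, a tachykinin peptide that acts on the receptor Tacr3. Heterozygous libraries read 1.40, 1.72 and 2.63 CPM and knockout libraries 0.339, 0.521 and 0.668 CPM. Here the spread within groups was wide, with heterozygous replicate 3 the highest at 1.875 times replicate 1, yet the groups did not overlap. Its log2 fold change was -1.90 ± 0.39 (SE), with 26.6% of the heterozygous mean remaining. It maps to chromosome 10 from 127162448 to 127168823 (NCBIM37), and none of its 650 stretches of 31 bases occurs in another gene.

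Cysltr1, the gene of the set on chromosome X (103769685 to 103799018, NCBIM37), encodes a receptor for cysteinyl leukotrienes. It gave 7.99, 6.60 and 6.16 CPM with 1 Dnmt1 allele and 2.12, 1.41 and 2.61 CPM without, and the groups did not overlap. The log2 fold change was -1.76 ± 0.26 (SE), and 29.6% of the heterozygous mean remained. Since it is X-linked, its values are also given by sex, read from Y-linked transcripts. These summed to 332 and 268 CPM (by library totals) in heterozygous replicates 1 and 3 and to 168 CPM in knockout replicate 2. The other libraries held 7.66 to 9.85 CPM. Knockout replicate 2 lay below both heterozygous libraries read as male, and whether any library pooled embryos of both sexes was not tested. In males the knockout library held 19.9% of the heterozygous mean, and in females the knockout libraries held 35.9% of the heterozygous library. Its counts were divided between a transcript of 5142 bases and one of 1059 bases that lies wholly within it by sequence. Of the counts, the longer one took 84.5%, 63.1% and 65.9% across heterozygous replicates and 73.2%, 87.1% and 81.4% across knockout replicates, so the shares overlapped and both transcripts were lower in every knockout library.

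Among the genes of the cell surface and matrix, Cntn3 showed the deepest fall. It encodes contactin 3, an immunoglobulin-domain adhesion molecule held to the membrane by a lipid anchor and known from neurons. Estimated counts came to 672.2, 633.2 and 361.3 with 1 Dnmt1 allele, and to 0.0, 0.0 and 2.4 with none. In CPM that was 13.1, 10.8 and 7.97 against 0, 0 and 0.0393. The ratio of summed counts, corrected for library size, was 667 with a 95% counting interval of 222 to 6639 (exact binomial, counting error only). All heterozygous libraries held at least 361.3 counts and no knockout library reached 3. The counts came from 1 transcript of 5183 bases and 22 exons, and only 0.543% of its 31-base stretches occur in other genes. The gene covers 301.4 kb on chromosome 6 from 102113300 to 102414661 (NCBIM37).

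R3hdml encodes a predicted secreted protein of the CAP superfamily, the family of the cysteine-rich secretory proteins. Heterozygous replicates 1 to 3 read 2.47, 4.78 and 4.97 CPM, and knockout replicates 1 to 3 read 1.10, 0.366 and 0.806 CPM. The groups did not overlap, but heterozygous replicate 1 was well under the other two, with a CV of 34.1% in that group. The fitted log2 change was -2.42 ± 0.43 (SE), and 18.6% of the heterozygous mean remained. It has a single transcript of 1094 bases, on chromosome 2 from 163318054 to 163328348 (NCBIM37), with no 31-base stretch shared with another gene.

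Adamtsl3 encodes a matrix glycoprotein with thrombospondin repeats, related to the ADAMTS proteases but without the protease domain. Levels were 2.24, 1.67 and 1.79 CPM across heterozygous replicates, and 0.594, 0.444 and 0.334 CPM across knockout replicates. The groups were well apart, with the lowest heterozygous library at 2.81 times the highest knockout library. The log2 fold change was -2.05 ± 0.34 (SE), with 24.1% of the heterozygous mean left. The full-length transcript of 7249 bases and 30 exons took at least 98.8% of the counts in every library. Because the transcript is long, its level per length was low, with means of 0.351 ± 0.0343 and 0.0716 ± 0.0170 TPM in heterozygous and knockout libraries (SD, n = 3). The gene covers 278.8 kb on chromosome 7 from 89484204 to 89762960 (NCBIM37).

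Slc26a7 encodes an anion exchanger of the SLC26 family, known in the adult kidney for chloride and bicarbonate transport in acid-secreting cells of the collecting duct. It was the most abundant of the 10 genes. It reached 44.96, 31.3 and 39.8 CPM across heterozygous replicates and 8.99, 14.04 and 15.2 CPM across knockout replicates, without overlap. The knockout library with the lowest value was replicate 1, which also held the most ureteric bud and tubule markers. That library had the lowest cap mesenchyme sum too, at 1793 CPM against 2070 and 2144 CPM in knockout replicates 2 and 3. The part of cell content in the Slc26a7 values was not tested. The log2 fold change was -1.60 ± 0.21 (SE), and 32.9% of the heterozygous mean remained. The transcript of 5165 bases and 19 exons took between 93.0% and 98.4% of the counts, and 3 shorter transcripts took the rest. Its locus is on chromosome 4, bases 14429577 to 14548952 (NCBIM37).

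Rit2 encodes a Ras-like GTPase that binds calmodulin and is known from neurons. It read 1.44, 2.35 and 1.90 CPM across heterozygous and 0.403, 0.347 and 0.354 CPM across knockout replicates, so the groups were apart and the knockout libraries were close to each other. Its log2 fold change was -2.36 ± 0.34 (SE), and 19.4% of the heterozygous mean remained. The fall lay in the transcript of 1806 bases, which held 67.5, 133.3 and 80.4 estimated counts across heterozygous and 14.2, 14 and 14.5 across knockout replicates. A second coding transcript of 1674 bases held 6.5, 1.2 and 5.6 against 4.8, 4.0 and 2.3, and these ranges overlapped. At under 10 counts a library, a change of that second transcript was not detectable at this depth. The gene covers 343.8 kb on chromosome 18.

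Level per length put the genes in another order than CPM. Mean TPM in the heterozygous libraries was 11.7 ± 0.805 for Slc26a7, 4.91 ± 1.496 for R3hdml, 4.18 ± 1.25 for Tac2, 3.56 ± 0.320 for Cysltr1, 2.68 ± 0.601 for Ctf2 and 2.41 ± 0.684 for Cntn3 (SD, n = 3). Below them came Ccl27b at 1.74 ± 0.454, Rit2 at 1.31 ± 0.270, Adamtsl3 at 0.351 ± 0.0343 and Lrrfip2 at 0.212 ± 0.215 TPM. R3hdml, Tac2 and Cysltr1 overlapped across libraries, as did Ctf2 and Cntn3, R3hdml and Ctf2, and Adamtsl3 and Lrrfip2. Ccl27b overlapped Ctf2, Cntn3 and Rit2. The median of all genes tested was 5.999 TPM, and 9 of the 10 genes lay under it.

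Ccl27b is a copy of the chemokine gene Ccl27a, whose product attracts lymphocytes through the receptor Ccr10. Estimated counts were 12.0, 25.9 and 16.8 across heterozygous replicates and 1.9, 0.2 and 0.2 across knockout replicates, so every knockout library was below every heterozygous one. The ratio of summed counts was 23.1, with a 95% counting interval of 6.997 to 224 (exact binomial, counting error only). These few counts have no sequence of their own to rest on. Of 406 stretches of 31 bases in the annotated form of the transcript that held its heterozygous counts, 406 also occur in Gm2506, 399 in Gm13306 and 313 in Ccl27a, so which copy kallisto gave a read is uncertain. In the tables the transcript is 390 bases long and in the annotation 436, so the index differed somewhat. Ccl27a itself averaged 26.03 ± 2.14 CPM with 1 Dnmt1 allele and 25.6 ± 2.01 CPM with none (SD, n = 3), a log2 fold change of -0.03 ± 0.11 (SE) with an adjusted p of 0.913 (edgeR). Summed over Ccl27b, Ccl27a, Gm13306, Gm2506 and Gm13308, a set added after the values were seen, the level was 27.1 ± 2.43 against 26.2 ± 1.90 CPM, and the groups overlapped. Ccl27b made up 1.29% of that sum in the heterozygous libraries, so the sum cannot tell its loss from reads given to another copy. Of the small copies, Gm13306 averaged 0.317 ± 0.094 against 0.205 ± 0.154 CPM and Gm13308 0.369 ± 0.124 against 0.431 ± 0.070 CPM (SD, n = 3). Both overlapped between groups.

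**Figure D2:**
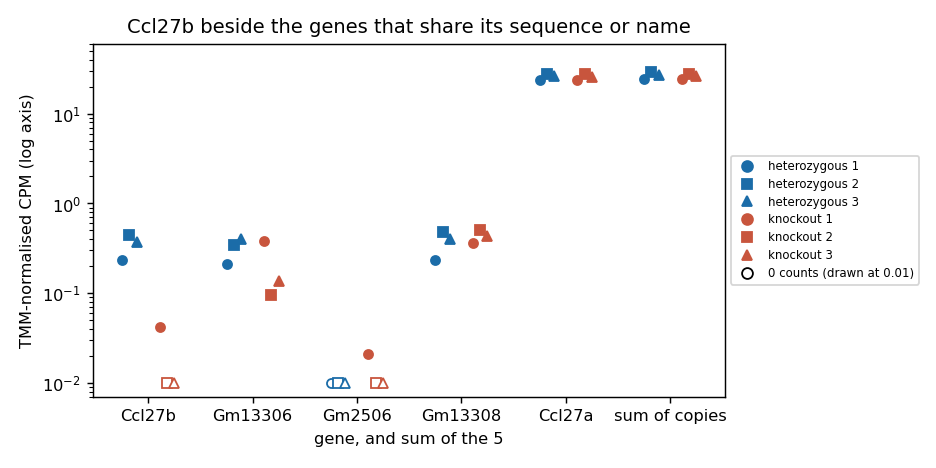
TMM-normalised CPM (log axis) of Ccl27b, of 4 genes that share its sequence or belong to the same cluster, and of the sum of the 5, in the 3 heterozygous (blue) and 3 knockout (red) libraries. Open markers are estimated counts that rounded to 0. Counts given to Ccl27b are at or near 0 in the knockout, and the sum lies between 24.3 and 29.4 CPM in all 6 libraries. Ccl27b is 1.29% of the sum in the heterozygous libraries, too little for a change in it to show there.

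Lrrfip2 encodes a cytoplasmic protein that binds Flightless 1 and takes part in Toll-like receptor and Wnt signalling. The tables hold 2 transcripts that the annotation pairs with it. One was at 0 in all 6 libraries, and the other, of 3191 bases, held 59.8, 13.8 and 11.1 estimated counts across heterozygous replicates and 0 in each knockout library. Heterozygous replicate 1 supplied most of these counts. Against 3 counts in each knockout library the fall was at least 9.13-fold with all libraries, and at least 3.999-fold without heterozygous replicate 1. The value is that of 1 isoform and not of the gene. In the annotation, where the transcript is 3215 bases long, 29 stretches of 31 bases set this transcript apart from the other Lrrfip2 transcripts, and all of them cross the junction of exons 4 and 5. That junction, shown here because it is where the annotated isoforms differ, joins bases 111063893 and 111091266 of chromosome 9 (NCBIM37) and lies in the coding sequence. In the 59 bases around it, small letters are exon 4 and capitals exon 5.
Lrrfip2 junction: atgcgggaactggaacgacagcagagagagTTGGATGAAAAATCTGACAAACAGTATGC
A further 22107 transcripts in the tables had no gene in the annotation, and whether they hold other forms of Lrrfip2 or share this junction was not tested.

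Promoter windows of 300 bases (250 before to 50 after a start site) were read from RefSeq on GRCm38.p6 for the 7 genes that matched, with 11 start sites. They are shown for 5 genes because CpG dinucleotides are the sites that Dnmt1 methylates, and the genes differ widely in how many they have. Capitals mark each CG, the one motif searched, which reads the same on both strands. The windows are chr6:102464618-102464917 (minus strand) for Cntn3, chr7:127725567-127725866 (minus) for Ctf2, chr10:127724228-127724527 (plus) for Tac2, chr2:163492068-163492367 (plus) for R3hdml and chr7:82335444-82335743 (plus) for Adamtsl3.
Cntn3: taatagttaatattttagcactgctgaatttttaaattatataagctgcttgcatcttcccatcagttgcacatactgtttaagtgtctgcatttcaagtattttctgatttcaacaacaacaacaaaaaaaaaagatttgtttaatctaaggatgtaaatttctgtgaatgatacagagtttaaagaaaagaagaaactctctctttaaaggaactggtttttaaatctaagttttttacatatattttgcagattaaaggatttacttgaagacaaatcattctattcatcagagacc
Ctf2: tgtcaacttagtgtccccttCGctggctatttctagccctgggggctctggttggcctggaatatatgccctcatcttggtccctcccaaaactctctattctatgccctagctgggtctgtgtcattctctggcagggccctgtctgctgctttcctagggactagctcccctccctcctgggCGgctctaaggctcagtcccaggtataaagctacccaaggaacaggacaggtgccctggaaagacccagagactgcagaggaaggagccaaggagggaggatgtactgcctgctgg
Tac2: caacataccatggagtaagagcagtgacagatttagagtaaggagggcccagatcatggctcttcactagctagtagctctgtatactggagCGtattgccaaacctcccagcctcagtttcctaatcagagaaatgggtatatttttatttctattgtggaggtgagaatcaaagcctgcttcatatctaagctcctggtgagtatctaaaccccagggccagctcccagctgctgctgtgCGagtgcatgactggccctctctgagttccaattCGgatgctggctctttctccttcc
R3hdml: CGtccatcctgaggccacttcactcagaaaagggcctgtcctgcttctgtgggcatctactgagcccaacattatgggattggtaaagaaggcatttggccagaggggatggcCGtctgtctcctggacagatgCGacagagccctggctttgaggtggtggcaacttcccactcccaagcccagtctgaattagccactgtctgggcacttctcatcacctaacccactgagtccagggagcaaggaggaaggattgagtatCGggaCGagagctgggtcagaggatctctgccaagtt
Adamtsl3: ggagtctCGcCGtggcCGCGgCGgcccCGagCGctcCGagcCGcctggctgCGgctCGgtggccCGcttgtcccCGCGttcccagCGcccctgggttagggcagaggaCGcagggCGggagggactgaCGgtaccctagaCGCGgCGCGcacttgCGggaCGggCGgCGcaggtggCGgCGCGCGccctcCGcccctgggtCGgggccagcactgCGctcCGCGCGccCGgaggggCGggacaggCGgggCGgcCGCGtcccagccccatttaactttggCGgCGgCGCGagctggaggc
The Cntn3 window holds 0 CG, as do 5.4% of the 32851 mouse promoters of this length, and its GC content is 27.7%. The Ctf2 window holds 2 CG, that of Tac2 holds 3 and that of R3hdml holds 5, below the median of 7 over all promoters. Ccl27b has 4 start sites with 3 to 7 CG. Adamtsl3 has 46 CG, and 98.4% of promoters have fewer. Lrrfip2 has 36 and 38 CG at its 2 start sites, with at least 93.8% of promoters having fewer. At least 1 CG is found in 94.6% of all promoters. For comparison, the median of the most CG per gene was 20 over 11075 tested genes with a promoter, 23 over 213 genes called lower and 13 over 537 called higher. These are counts of letters. No methylation was measured in these libraries.

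**Figure D3:**
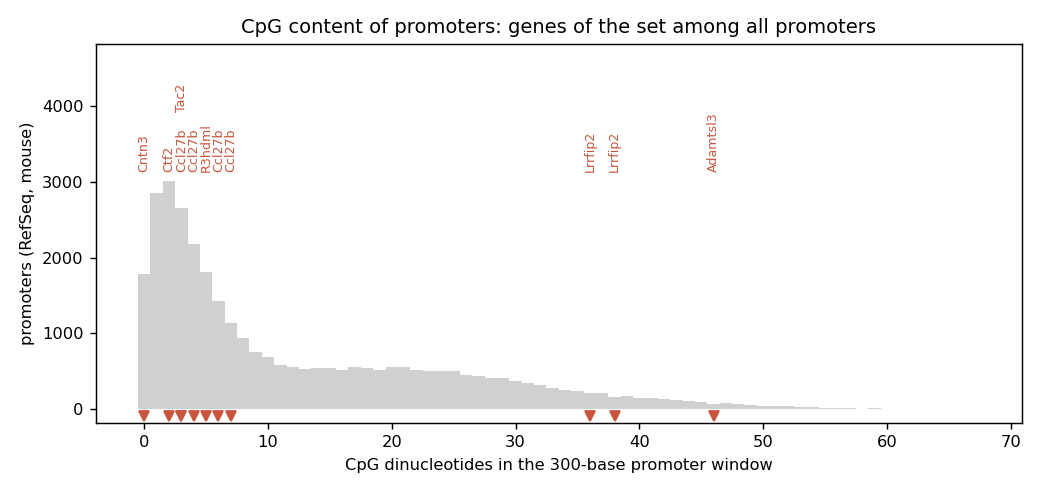
Number of CpG dinucleotides in the 300-base window (x axis) of all RefSeq mouse promoters (grey bars), with the 11 start sites of 7 genes of the set named above the bars and marked by triangles below. Cntn3 stands at 0, Ctf2, Tac2, R3hdml and Ccl27b between 2 and 7, Lrrfip2 at 36 and 38 and Adamtsl3 at 46.

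Genes next to the falling genes were not used in choosing them and could be tested. The nearest tested protein-coding gene on each side gave 20 neighbours, at 0.0 to 2028.1 kb. None was called lower or higher (edgeR quasi-likelihood test, Benjamini-Hochberg), where 1.92% of all genes were called lower and 4.92% higher. At an unadjusted p under 0.05 the count was 0 as well, and DESeq2 and limma voom called 0. Their median log2 fold change was -0.01, beside -0.003 over all genes tested. One of the 20, Myo1a, had knockout libraries wholly below the heterozygous ones, where 14.2% of all genes did.

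Of the closest neighbours, within 8 kb, 5 are given here. Ctf1, which encodes cardiotrophin 1 and overlaps the end of Ctf2 on the opposite strand, averaged 1.11 ± 0.339 and 0.989 ± 0.163 CPM in heterozygous and knockout libraries (SD, n = 3), and its log2 fold change was -0.16 ± 0.35 (SE). Gm5127, which overlaps Cysltr1 on the opposite strand, had a log2 fold change of -0.08 ± 0.43 (SE). Hnf4a, a transcription factor of the proximal tubule 4.2 kb from R3hdml, had 0.62 ± 0.44, and Myo1a and Zbtb39, at 4.5 and 7.8 kb on either side of Tac2, had -0.37 ± 0.35 and 0.04 ± 0.17 (SE). Adjusted p over these 5 lay between 0.438 and 0.929 (edgeR, Benjamini-Hochberg). With standard errors up to 0.44, smaller changes of these genes cannot be told from none, and the sign of Gm5127 and Zbtb39 turned under some alternative analyses.

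**Figure D4:**
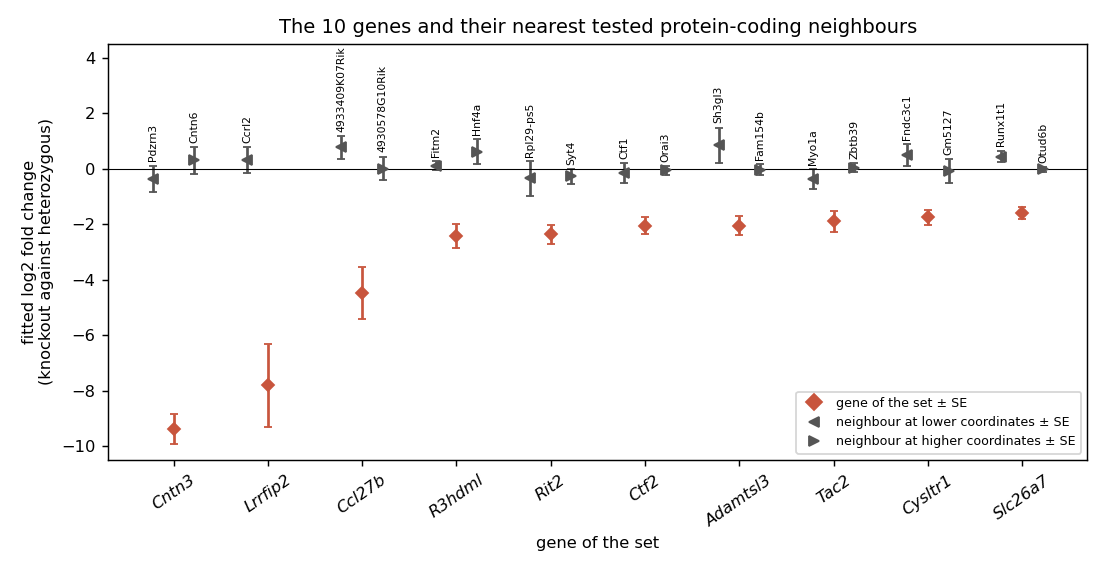
Fitted log2 fold change, knockout against heterozygous, with its SE for each of the 10 genes (red diamonds) and for 19 of the 20 nearest tested protein-coding genes at lower and higher coordinates (grey triangles). The neighbours drawn lie between -0.37 and 0.85, while the 10 genes lie between -9.39 and -1.60.

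Families and pathways of the 10 genes were followed in lists that leave out the genes themselves. Of 169 listed genes 166 were matched and 146 tested, with Ccl25 under 2 identifiers. There were 6 called lower, or 4.11% of those tested beside 1.92% of all genes, and 7 called higher, or 4.795% beside 4.92%. The median log2 fold change was -0.07. By list, medians lay between -0.28 and 0.28.

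**Figure D5:**
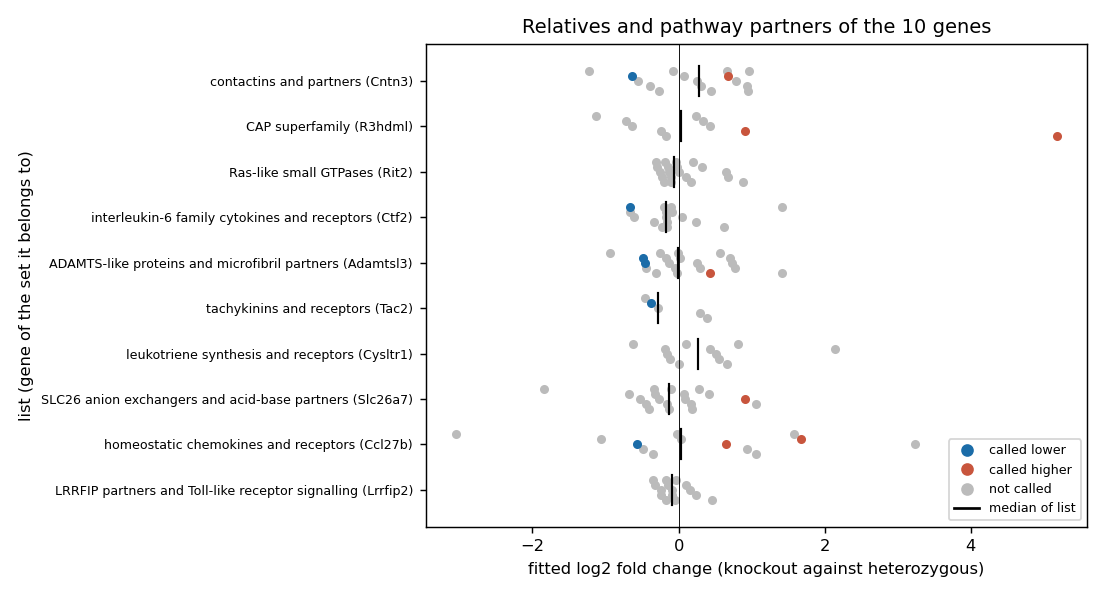
Fitted log2 fold change, knockout against heterozygous (x axis), of every tested relative or partner, by list (y axis); blue points were called lower, red points higher, grey points were not called, and black bars are list medians. Medians lie between -0.28 and 0.28.

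Signalling partners of Ctf2 included the one relative with the smallest p for a fall. Lifr, the LIF receptor, fell by 0.67 on the log2 scale, from a mean of 104.9 ± 4.88 CPM to 65.9 ± 2.45 CPM (SD, n = 3; adjusted p = 0.000433, edgeR). Its libraries were at 110, 103 and 101 against 68.7, 64.6 and 64.3 CPM. Lifr was the 1 gene called among 16 tested cytokines, receptors and signal carriers of the interleukin-6 family, and 15 did not pass. Cntfr, the receptor subunit that binds neuropoietin and named here after its values were seen, was at 51.0 ± 1.53 and 40.3 ± 8.86 CPM with overlapping groups (adjusted p = 0.196, edgeR).

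Of 5 tachykinin genes tested, Ece1, a peptidase that can cleave such peptides, fell from 95.2 ± 11.6 to 73.3 ± 0.793 CPM (mean ± SD of 3 libraries; edgeR adjusted p = 0.0440), and 4 did not pass. The call for Ece1 was lost under 12 of the alternative analyses, with adjusted p up to 0.168. Tacr3, the receptor of neurokinin B and named after its values were seen, was at 13.8 ± 3.08 and 18.2 ± 3.85 CPM, and did not pass (adjusted p = 0.283, edgeR). None of 12 tested genes of leukotriene synthesis and signalling was called (edgeR). The most abundant, Lta4h, which makes leukotriene B4, had a log2 fold change of -0.11 ± 0.08 (SE; edgeR, adjusted p = 0.461).

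Homeostatic chemokines and receptors moved in both directions, with 1 of 13 gene entries lower, 2 higher and 10 not passing. Ccl25 has 2 of these entries. Cxcl12, the ligand of Cxcr4, fell from 120.2 ± 4.09 to 81.3 ± 6.15 CPM, and Cxcr4 rose from 15.7 ± 2.74 to 24.7 ± 3.71 CPM (mean ± SD of 3 libraries; edgeR adjusted p = 0.00204 and 0.0315). The Cxcr4 call was lost under 9 alternatives, with adjusted p up to 0.148. Ccl21b rose from 4.97 ± 0.673 to 15.9 ± 4.74 CPM (mean ± SD of 3 libraries; edgeR adjusted p = 0.00170). It is one of several near-identical copies, so how its reads were divided is uncertain. Its knockout libraries, at 19.4, 17.7 and 10.5 CPM, had the order of the endothelial marker sums (239, 103 and 59.0 CPM). The stromal, ureteric bud, tubule, macrophage and podocyte sums had the same order, which therefore does not single out a cell type.

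In the families of the surface and matrix genes few members moved. Among 16 contactins and partners tested, Sdk2, a synaptic adhesion protein, fell from 18.5 ± 1.70 to 11.9 ± 1.70 CPM and L1cam, an adhesion molecule of axons, rose from 4.86 ± 0.498 to 7.73 ± 0.210 CPM (mean ± SD of 3 libraries; edgeR adjusted p = 0.0236 and 0.0462). Those calls were lost under 7 and 14 alternatives, with adjusted p up to 0.1395 and 0.399. Of 20 ADAMTS and microfibril genes, the proteases Adamts9 (-0.46 ± 0.10) and Adamts12 (-0.49 ± 0.12) fell and Ltbp1, a carrier of latent TGF-beta, rose (0.43 ± 0.09; log2 fold change ± SE; edgeR adjusted p = 0.0159, 0.0358 and 0.020). These 3 calls were lost under 3, 11 and 7 alternatives, with adjusted p up to 0.0900, 0.1445 and 0.565.

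Of 10 CAP genes with a test, 2 rose and 8 did not pass. Glipr1l1, known from the testis, rose from 0.0187 ± 0.0173 to 0.783 ± 0.377 CPM and Glipr2, a Golgi-associated protein, from 29.7 ± 5.12 to 55.5 ± 10.7 CPM (mean ± SD of 3 libraries; edgeR adjusted p = 0.00206 and 0.0129). The Glipr2 libraries, at 67.1, 53.5 and 46.0 CPM in knockout replicates 1 to 3, also had the order of the endothelial marker sums (239, 103 and 59.0 CPM). Stromal, ureteric bud, tubule, macrophage and podocyte sums shared that order, so it does not single out a cell type. The Glipr2 call was lost under 3 alternatives with adjusted p up to 0.0796.

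Among 19 anion exchangers and acid-base genes, Car12, a membrane carbonic anhydrase, rose from 33.7 ± 3.85 to 63.4 ± 6.75 CPM (mean ± SD of 3 libraries; edgeR adjusted p = 0.000650), and 18 did not pass. None of 20 Ras-like GTPases and none of 15 partners of Lrrfip2 was called (edgeR). Nras, the most abundant of the first, had a log2 fold change of -0.13 ± 0.09, and Golga4, the most abundant of the second, of -0.15 ± 0.08 (SE; edgeR, adjusted p = 0.438 and 0.335).

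The profile over the 6 libraries was also compared with all other genes tested. The highest Pearson correlations with the mean standardised profile of the 10 genes were those of Ddah1 (0.999), Vit (0.998), Hoxc9 (0.997), Slc38a8 (0.997) and Rab3il1 (0.997), over 6 libraries that share the split into 2 groups. Mean levels were 58.5 and 31.9 CPM for Ddah1, 4.38 and 1.74 for Vit, 41.95 and 28.8 for Hoxc9, 1.42 and 1.09 for Slc38a8 and 17.1 and 8.07 for Rab3il1 in the heterozygous and knockout groups. Such a correlation measures how evenly a gene keeps to the 2 levels, not how far it falls.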

How the data were processed

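Sorted cap mesenchyme was sequenced in 3 Dnmt1 +/- and 3 Dnmt1 -/- libraries. Per library, the authors deposited a table of kallisto estimated counts (expected counts, not whole) and TPM per transcript, per the file headers. The submitters' processing notes name mm10. The sources used here give no kallisto version, annotation release or strandedness.

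Of 96626 transcripts, 74519 were paired with genes through GENCODE vM1 on NCBIM37 and held 92.4% to 92.82% of counts. Estimated counts were summed per gene, rounded, filtered with filterByExpr and tested with edgeR 4.0.16 (TMM, robust quasi-likelihood fit, group only; R 4.3.3), with Benjamini-Hochberg adjustment over 16989 genes at 0.05. The SE is the fitted log2 fold change divided by the square root of its F statistic. At this depth 3 counts were 0.051 to 0.0662 CPM. Ratios for genes with 1 to 3 knockout counts and bounds for genes at 0 cover counting error only. Sequence overlap between genes was counted in stretches of 31 bases over the annotation's protein-coding transcripts.

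One neighbour is not reported here. The genes and lists were chosen with earlier results of these data known. Named relatives are those called (up to 5 per list) or, where none was, the most abundant. Alternatives were DESeq2 1.42.0, limma 3.58.1 (voom; log2 of TPM plus 1 or 0.1), other scalings and filters, non-robust dispersions, the replicate number as a block, sex as a covariate (male above 50 CPM of Y-linked genes), unpaired transcripts kept, and each library left out. No 2 libraries agreed within sampling noise (chi-square per degree of freedom at least 14.26).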

Additional observations from a re-analysis of the deposited data

How the results depend on the processing

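All 10 genes kept a fall under each of the 19 alternatives that gave a value. They were chosen on this contrast and the alternatives refit the same libraries, so a kept fall or call adds no support. Of 180 log2 fold changes of these genes under the alternatives, 23 moved by more than 1 SD between replicates. Past-threshold status was lost for Lrrfip2 with sex as a covariate, with unfiltered log2(TPM + 1) and without knockout replicate 2, for Tac2 without heterozygous replicate 3 or knockout replicate 2, and for Ccl27b under the replicate block and without heterozygous replicate 2 or 3 or knockout replicate 2 or 3. No value was given for Ccl27b and Lrrfip2 with a filter of 1 CPM in 3 libraries, nor for those and Rit2 and Adamtsl3 with a filter of 1 TPM. The 327 lower and 836 higher genes became 1883 lower with library totals only (the median of all genes then lay at -0.166), 586 and 1346 with DESeq2, 761 and 457 with limma on log2(TPM + 1), 756 and 454 on log2(TPM + 0.1), 548 higher without the TPM filter, and 162 lower with sex as a covariate. Leaving out 1 library gave 116 to 272 lower and 526 to 916 higher genes, the lowest both without knockout replicate 2, and 169 and 171 lower without heterozygous replicate 2 and 3. The 6 lower relatives became 18 with library totals, 3 with unfiltered log2(TPM + 1), 2 with sex as a covariate and 2 to 6 without 1 library (2 without heterozygous replicate 3 or knockout replicate 2). The 7 higher relatives became 13 with DESeq2, 3 with either filtered TPM analysis, 4 without its filter, 4 with the replicate block and 3 to 8 without 1 library (3 without knockout replicate 2, 4 without heterozygous replicate 2). The calls for Lifr, Cxcl12, Ccl21b and Car12 held under each of the 19 alternatives, and that for Glipr1l1 under the 16 that gave it a value (none with the filters of 1 CPM or 1 TPM). No neighbour was called under any of them (0 to 0 without 1 library). Same-numbered libraries did not deviate together (correlations of -0.058, -0.048 and -0.031), so the numbers were not read as pairs. Heterozygous replicates 1, 2 and 3 had positive correlations with knockout replicates 3, 1 and 2 (0.159, 0.185 and 0.205). The remaining pairs lay between -0.168 and -0.114. Whether any of these libraries share a litter or batch was not tested. Counts under 3 per library limit Cntn3, Ccl27b and Lrrfip2 in the knockout.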
